A study of Mus musculus with 9 samples.

Results

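The TIF1 family (transcription intermediary factor 1) comprises 4 genes, Trim24, Trim28, Trim33 and Trim66, whose products are nuclear cofactors that act on chromatin and tune transcription. The family was taken from the deposited table by gene symbol, and each of the 4 symbols had 1 entry among 38685 genes and loci. All 4 passed the filter on low counts that left 14893 genes for testing. The family was singled out because of the level of Trim24 in Prm2-/- against Prm2+/+ testes, so the values of Trim24 are given as a description with no test. The 3 relatives were chosen by family membership.

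The proteins of this family join B-boxes and a coiled coil at one end, in most members with a RING finger, to a PHD finger and a bromodomain at the other. Domains typical of ubiquitin ligases and of readers of histone marks can thus sit in the same molecule. TRIM28, also called KAP1, is the shared cofactor of the large family of KRAB zinc finger repressors and brings histone methylation, deacetylation and heterochromatin protein 1 (HP1) to their targets, among them retrotransposons. TRIM24 was first described as a cofactor of nuclear receptors such as the retinoic acid receptors and also acts on p53, TRIM33 acts on SMAD proteins downstream of TGF-beta and BMP signals, and TRIM66 is known from the testis, where it partners with HP1. During spermiogenesis most histones are replaced by transition proteins and then by protamines, which makes cofactors of chromatin of interest in Prm2-deficient testes. Prm2 is the gene for protamine 2.

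The testes came from male C57BL/6 mice of 3 genotypes, wildtype (Prm2+/+), heterozygous (Prm2+/-) and deficient (Prm2-/-), with 3 biological replicates each. The Prm2-deficient lines were made by gene editing with CRISPR/Cas9 in oocytes, and neither an age of these males nor a treatment is given in the sources used here. Whole testis without the tunica albuginea was used, so the RNA mixes germ cells of every stage with somatic cells. In such tissue, fewer cells of a type and less RNA per cell cannot be told apart. Libraries were made with QuantSeq, which reads polyadenylated transcripts near their 3′ end, and the table gives normalized counts, meaning the counts of a gene in a sample divided by 1 size factor of that sample.

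The counts before this division, recovered as whole numbers, summed to between 3629929 and 4490411 per sample. The transcript of the targeted gene, Prm2, did not check the labels, since it ranged over 29716 to 39665 normalized counts for Prm2+/+, 30174 to 34487 for Prm2+/- and 34660 to 42766 for Prm2-/-. Group names below follow the labels only. Replicate 3 of Prm2+/+ stood apart from the other libraries. In it, 512 of the 14893 tested genes (3.44%) lay at least 4-fold below all other 8 libraries, against 35 to 76 genes for each of the others, and 602 tested genes had 0 counts, against 121 to 242. The threshold of 4-fold, taken on log2(normalized count + 1), was chosen after the data were seen. Markers of germ cells, Sertoli cells, Leydig cells, peritubular cells, macrophages and endothelium had summed counts above 0 in all 9 libraries. Of 5 epididymal markers, 4 (Lcn5, Lcn8, Ovch2 and Adam28) had 0 counts in all 9 libraries. Of 5 markers of liver, muscle and blood, 2 (Alb and Myh1) had 0 counts in all 9. The summed normalized counts of these 5 were 429 to 759 per library.

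**Figure D1:**
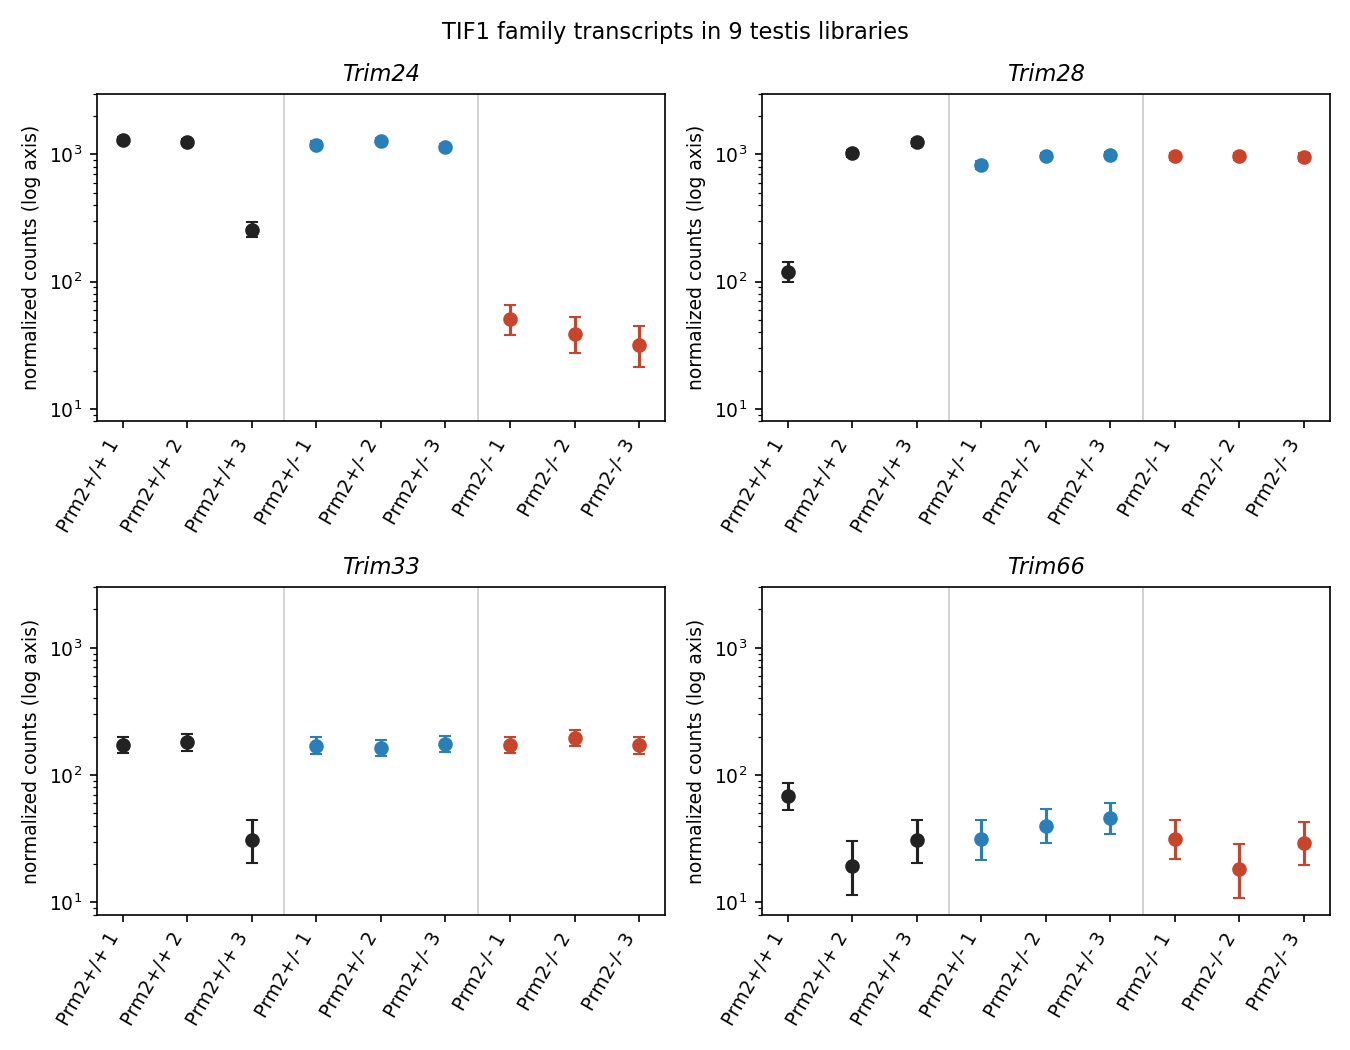
Normalized counts (log axis) of Trim24, Trim28, Trim33 and Trim66 in each of the 9 testis libraries, by genotype and replicate number. Bars are exact Poisson 95% intervals of the recovered counts and cover counting error at most. Trim24 sits at 31.7 to 50.7 in the 3 Prm2-/- libraries, while Trim28 is low in replicate 1 and Trim33 in replicate 3 of Prm2+/+ alone.

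Trim24 (ENSMUSG00000029833) is a protein-coding gene on the plus strand of chromosome 6 (GRCm38, 37870811 to 37966296), with 8 annotated transcripts that end at 7 different 3′ positions. In Prm2+/+, its normalized counts were 1287 in replicate 1, 1250 in replicate 2 and 256 in replicate 3. In Prm2+/-, the 3 replicates had 1191, 1275 and 1139. In Prm2-/-, they had 50.7, 38.6 and 31.7. The transcript was thus at a high level in 5 libraries, 2 of Prm2+/+ and all 3 of Prm2+/-, and at a low level in all 3 libraries of Prm2-/-. Replicate 3 of Prm2+/+ lay between these levels.

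The 5 high libraries had 1139 to 1287 normalized counts, with a mean of 1228. They were grouped by their Trim24 values and come from 2 genotypes, so this range does not measure the spread of a genotype. The lowest of the 5 was 22.5-fold above the highest Prm2-/- library. Replicate 3 of Prm2+/+ was 5.05-fold above the highest Prm2-/- library, and the mean of replicates 1 and 2 of Prm2+/+ was 4.95-fold above replicate 3. The recovered counts of Trim24 were 30 to 56 in the Prm2-/- libraries, 232 in replicate 3 of Prm2+/+ and 1166 to 1396 in the other 5 libraries. The exact Poisson 95% interval of replicate 3 of Prm2+/+, 224 to 292 normalized counts, overlapped none of those of the other 8 libraries. Such intervals cover counting error at most and hold no variation between animals.

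By genotype, Trim24 had 1202 ± 68.7 normalized counts for Prm2+/-, 931 ± 584 for Prm2+/+ and 40.3 ± 9.64 for Prm2-/- (SD, n = 3 each). In this order the first pair did not differ beyond its spread, since the Prm2+/- libraries lie inside the range of the Prm2+/+ libraries. The Prm2-/- libraries overlapped neither of the other genotypes. Over all tested genes, the libraries of Prm2-/- and Prm2+/+ did not overlap for 14% and those of Prm2-/- and Prm2+/- for 14.7%. The mean of Prm2+/- was 29.8-fold that of Prm2-/-, and the mean of Prm2+/+ was 23.1-fold, or 31.5-fold for replicates 1 and 2 alone. These comparisons share libraries with the one that led to the choice of Trim24 and are given without a test.

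On the log2 scale, the fitted log2 fold change (LFC) of Trim24 between Prm2-/- and Prm2+/+ was -4.20 (standard error (SE) 0.57, limma on all 9 samples). It was -4.97 (SE 0.18) without replicate 3 of Prm2+/+ and -3.805 (SE 0.59) without replicate 1 of Prm2+/+. Between Prm2-/- and Prm2+/- the LFC was -4.89 (SE 0.57), a comparison in which the library with the intermediate level takes part only through the spread. Between Prm2+/- and Prm2+/+ it was 0.69 (SE 0.57), and without replicate 3 of Prm2+/+ it was -0.08 (SE 0.18). The fitted difference of both genotypes therefore came with that 1 library.

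A level in Prm2-/- at least 4-fold below all other 6 libraries was found for 3 of the 14893 tested genes (0.0201%), which were Trim24, Mfap5 and N4bp1. The opposite pattern, with Prm2-/- at least 4-fold above the other 6, was found for 15 genes (0.101%). Only Trim24 and Egr4, a gene for a zinc finger transcription factor, had replicate 3 of Prm2+/+ together with the 3 Prm2-/- libraries at least 4-fold below the other 5. For Egr4 these 4 libraries had 0 counts, and the other 5 had 12.4 to 19.8 normalized counts. These patterns were searched for after the values of Trim24 were seen.

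Trim28 (ENSMUSG00000005566) is on the plus strand of chromosome 7 (GRCm38, 12999114 to 13031035), with 10 annotated transcripts. Its span overlaps Zbtb45 on the minus strand, and whether the authors' counting used strand is not given in the sources used here. Trim28 had 119, 1022 and 1241 normalized counts in replicates 1, 2 and 3 of Prm2+/+. It had 822, 968 and 985 in Prm2+/- and 965, 968 and 952 in Prm2-/-. A single library, replicate 1 of Prm2+/+, was thus low, and the other 8 lay within 822 to 1241.

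The low library had 12.3% of the median of the other 8 (968 normalized counts) and lay 6.92-fold below the next lowest. Its exact Poisson 95% interval was 98.9 to 142 normalized counts, from 125 recovered counts. The transcript was even across the 3 Prm2-/- libraries, at 962 ± 8.33 (SD, n = 3), and 925 ± 90.0 in Prm2+/-, against 794 ± 595 in Prm2+/+.

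The LFC of Trim28 between Prm2-/- and Prm2+/+ was 0.85 (SE 0.77, limma adjusted p = 0.782), with a 95% interval of -0.93 to 2.63. Without replicate 1 of Prm2+/+, it was -0.23 (limma adjusted p = 0.596), with an interval of -0.51 to 0.06. The direction of the fitted difference thus turned with 1 library. Between Prm2+/- and Prm2+/+ the LFC was 0.79 (limma adjusted p = 0.843). Without that library the LFC was -0.29 (limma adjusted p = 0.639), with an unadjusted 95% interval of -0.575 to -0.002 that excludes 0. Between Prm2-/- and Prm2+/- it was 0.06 (limma adjusted p = 1, interval -1.72 to 1.84), and without replicate 1 of Prm2+/+ the interval narrowed to -0.195 to 0.32. The share of tested genes called in these comparisons was 0.181% for Prm2-/- against Prm2+/+, 0.0806% for Prm2+/- against Prm2+/+ and 0.175% for Prm2-/- against Prm2+/-, at an adjusted p under 0.05 and an LFC beyond 0.5. Trim28 was not called in any of the 3.

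Trim33 (ENSMUSG00000033014) is on the plus strand of chromosome 3 (GRCm38, 103279293 to 103358775), has 7 annotated transcripts, and its span holds Gm43061 on the same strand. It had 174, 181 and 30.9 normalized counts in replicates 1, 2 and 3 of Prm2+/+. It had 170, 164 and 177 in Prm2+/- and 173, 196 and 172 in Prm2-/-. Here replicate 3 of Prm2+/+ was the single low library, at 17.8% of the median of the other 8 (173 normalized counts).

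The other 8 libraries lay within 164 to 196 normalized counts, a coefficient of variation of 5.34%. The low library, with 28 recovered counts, had an exact Poisson 95% interval of 20.6 to 44.7 normalized counts. By genotype, Trim33 had 180 ± 13.5 in Prm2-/-, 170 ± 6.16 in Prm2+/- and 129 ± 84.7 in Prm2+/+ (SD, n = 3 each), and none of these neighbours in the order differed beyond the spread.

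The LFC of Trim33 was 0.85 between Prm2-/- and Prm2+/+ (SE 0.595, limma adjusted p = 0.751), with a 95% interval of -0.53 to 2.22. Without replicate 3 of Prm2+/+, it was 0.02 (SE 0.10, limma adjusted p = 0.975), with an interval of -0.21 to 0.25. Between Prm2+/- and Prm2+/+ it was 0.77 (limma adjusted p = 0.842), and -0.06 without that library. Between Prm2-/- and Prm2+/- it was 0.08 (limma adjusted p = 1, interval -1.29 to 1.45). Without that library the interval was -0.13 to 0.29.

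Trim66 (ENSMUSG00000031026) is on the minus strand of chromosome 7 (GRCm38, 109449006 to 109508134), with 4 annotated transcripts. It was the member with the fewest counts, 18 to 72 recovered counts per library. It had 68.4, 19.3 and 30.9 normalized counts for Prm2+/+, 31.6, 40.2 and 45.9 for Prm2+/- and 31.7, 18.3 and 29.6 for Prm2-/-. The libraries of the 3 genotypes overlapped in every comparison. The highest library was replicate 1 of Prm2+/+, the one in which Trim28 was low.

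Trim66 had 39.5 ± 25.7 normalized counts for Prm2+/+, 39.3 ± 7.20 for Prm2+/- and 26.5 ± 7.22 for Prm2-/- (SD, n = 3 each). Its LFC was -0.41 between Prm2-/- and Prm2+/+ (SE 0.44, limma adjusted p = 0.805, 95% interval -1.42 to 0.60) and turned to 0.07 without replicate 1 of Prm2+/+. It was 0.16 between Prm2+/- and Prm2+/+ (limma adjusted p = 0.941) and -0.57 between Prm2-/- and Prm2+/- (limma adjusted p = 0.981, interval -1.58 to 0.44). None of these intervals excludes 0.

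**Figure D2:**
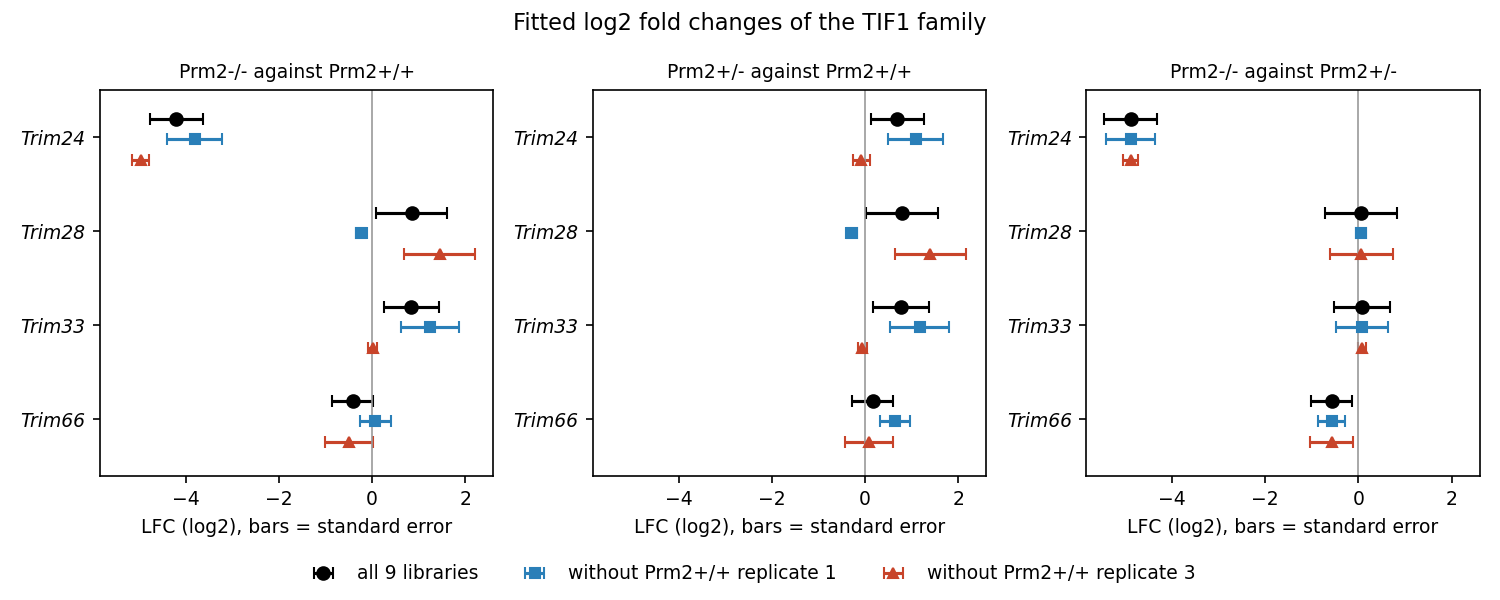
Fitted LFC (log2, x axis) of the 4 genes in the 3 comparisons, with all 9 libraries, without replicate 1 of Prm2+/+ and without replicate 3 of Prm2+/+. Bars are standard errors from limma. The LFC of Trim28 changed sign between Prm2-/- and Prm2+/+ from 0.85 to -0.23 without replicate 1, that of Trim33 moved from 0.85 to 0.02 without replicate 3, and that of Trim24 was -4.97 without replicate 3 and -3.805 without replicate 1.

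None (0) of the 3 relatives was called in any of the 3 comparisons by limma, edgeR or DESeq2. None had an unadjusted p under 0.05 in limma on all 9 samples. Across the 18 alternative settings, none of them was called either. Relative to exonic length, the median over the 9 libraries was 233 normalized counts per kb of exon for Trim28, 134 for Trim24, 17.6 for Trim33 and 3.12 for Trim66. Since QuantSeq reads only 3′ ends, scaling by length cannot be taken to put these levels in their true proportion. Without this scaling, Trim24 stood above Trim28. The unscaled medians were 1139 normalized counts for Trim24, 968 for Trim28, 173 for Trim33 and 31.6 for Trim66.

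The largest step between neighbouring libraries in the order of level was at least 4-fold for 3 of the 4 members, all except Trim66. This was so for 13.7% of all tested genes. Trim24 was chosen for its low level in Prm2-/-, and the threshold was set with the values of Trim28 and Trim33 known, so the count only describes the members. Without Trim24 it was 2 of 3. The step fell at a different place for each member. It set the Prm2-/- libraries apart for Trim24, replicate 1 of Prm2+/+ for Trim28 and replicate 3 of Prm2+/+ for Trim33. Trim28 was 1 of 76 tested genes (0.51%) low in replicate 1 of Prm2+/+ alone, and Trim33 was 1 of 512 low in replicate 3 of Prm2+/+ alone.

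**Figure D3:**
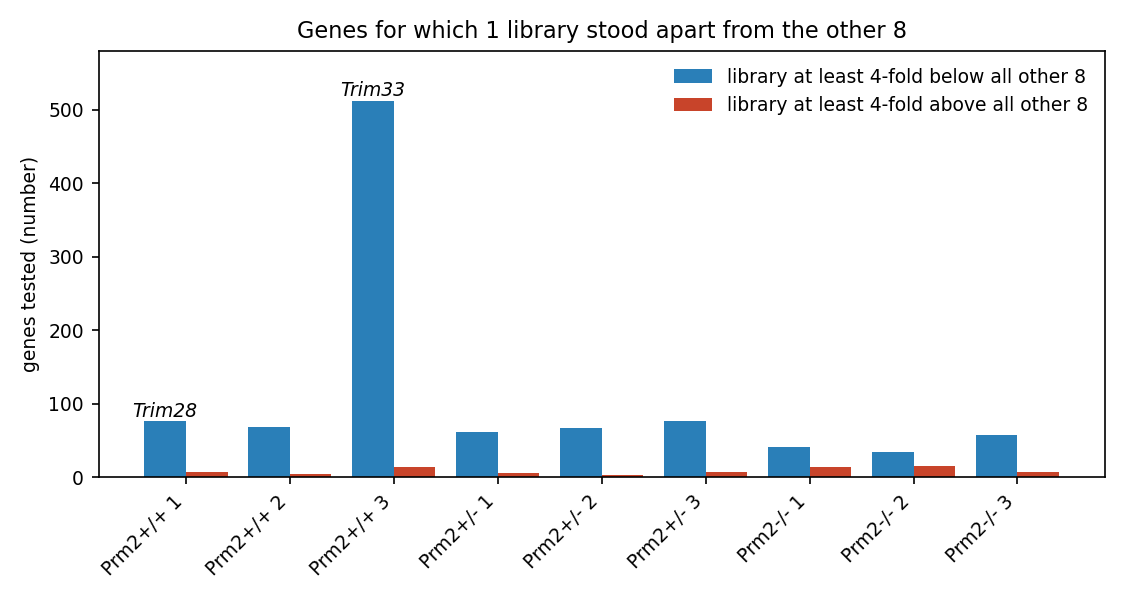
Number of tested genes (y axis) for which 1 library lay at least 4-fold below (blue) or above (red) all other 8, for each library. Replicate 3 of Prm2+/+ was the low library for 512 genes, Trim33 among them, and each other library for 35 to 76 genes, with Trim28 among those of replicate 1 of Prm2+/+.

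Over the 9 libraries, the genes whose log2 normalized counts were most like those of Trim24 were Gm15584 (Pearson's r = 0.95), Cenpw (0.94), Mfap5 (0.93), Egr4 (0.93) and Brd2 (0.92). Cenpw encodes a centromere protein, Mfap5 a microfibril protein of the extracellular matrix and Brd2 a bromodomain protein that reads acetylated histones. Their size of change differed. Mfap5 had 9.50 to 14.2 normalized counts in Prm2-/- and 62.3 to 87.5 in the other 6 libraries, whereas Cenpw had 898 to 943 against 987 to 1051. The genes most opposite to Trim24 were Parvg (r = -0.98), 1700020N15Rik (-0.98) and Mprip (-0.97). Mprip, which encodes a protein that binds myosin phosphatase, had 1669 to 1678 normalized counts in Prm2-/- and 283 to 493 in the other libraries. With 9 points that share the genotypes and the size factors, and Trim24 chosen for its level in Prm2-/-, these values only describe the pattern.

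The genes most like Trim28 were Atf5, 1700028M03Rik and Gm9774, with r from 0.996 to 0.998. Atf5, a gene for a transcription factor of stress responses, had 1.90 normalized counts in replicate 1 of Prm2+/+ and 40.5 to 68.5 in the other 8. The genes most like Trim33 were Gm732, Pdcd7 and Vac14, each with r of 0.998. Gm732 and Vac14 had 0 counts in replicate 3 of Prm2+/+, and Pdcd7 had 24.3 there against 132 to 158 normalized counts in the other 8. The genes most like Trim66 were 1700010K23Rik (r = 0.93), Mrps18c (0.93) and Triap1 (0.92). All of these correlations for Trim28 and Trim33 rest on 1 library. Among the members themselves, r lay between -0.69 (Trim28 with Trim66) and 0.46 (Trim24 with Trim66).

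Entries of the table within 100 kb of the members were read for the same libraries. Next to Trim24 lie Svopl and Atp6v0a4, with at most 9.50 and 3.80 normalized counts in any library. Next to Trim28, Chmp2a, a gene of the ESCRT machinery whose span begins 975 bp beyond that of Trim28, had 309 to 318 normalized counts for Prm2-/-, 221 to 245 for Prm2+/- and 200 to 262 for Prm2+/+. For Prm2-/- against Prm2+/+ Chmp2a had an LFC of 0.435 (limma adjusted p = 0.471). Zbtb45, inside the span of Trim28, had 4.94 to 12.9 normalized counts, with 10.5 in replicate 1 of Prm2+/+. Gm43061, inside Trim33, had 11.2 to 18.8, with 18.8 in replicate 3 of Prm2+/+. Stk33, a kinase gene next to Trim66, had 1487 to 2122.

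Of the 62 other genes of the table whose symbol starts with Trim and a digit, 37 were tested. None (0) was called in any comparison by limma, edgeR or DESeq2. Of the 37, 4 had an unadjusted p under 0.05 between Prm2-/- and Prm2+/+ in limma, against 1091 of all 14893 tested genes (7.33%). Their median LFC in that comparison was 0.06, beside 0.02 over all tested genes. A step of at least 4-fold between neighbouring libraries was found for 5 of the 37 (13.5%), Trim13, Trim16, Trim27, Trim62 and Trim68.

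Trim13, a gene for a ubiquitin ligase of the endoplasmic reticulum, had the largest LFC of these genes between Prm2-/- and Prm2+/+, 3.23 (limma adjusted p = 0.533). It had 125 to 138 normalized counts in Prm2-/- and 8.55 to 19.3 in Prm2+/+, and of the Prm2+/- libraries replicate 3 had 176 while replicates 1 and 2 had 10.9 and 10.0. With only the 6 samples of Prm2-/- and Prm2+/+, Trim13 was called (limma adjusted p = 0.0132). Without replicate 3 of Prm2+/-, it was called in limma for Prm2-/- against Prm2+/+ (adjusted p = 0.00676) and against Prm2+/- (adjusted p = 0.00822). Without replicate 2 of Prm2+/+, Trim23 was called between Prm2-/- and Prm2+/+ (LFC 1.52, limma adjusted p = 0.034), a gene named after its values were seen. Trim62 had 0 counts in replicate 3 of Prm2+/+ and 12.4 to 28.4 normalized counts elsewhere (LFC 1.64, limma adjusted p = 0.75). Trim27, a relative with a role in transcriptional repression that is expressed in male germ cells, had 947 normalized counts in replicate 1 of Prm2+/+ and 29.0 to 62.3 in the other 8. This is the library in which Trim28 was low, and Trim27 was the gene most opposite to Trim28 (r = -0.97). That last search was made after the values were seen, as was the choice of Trim16. Trim16 had 672 to 788 normalized counts in replicate 1 of Prm2+/+, replicate 1 of Prm2-/- and all Prm2+/- libraries, and 21.1 to 50.8 in the other 4.

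**Figure D4:**
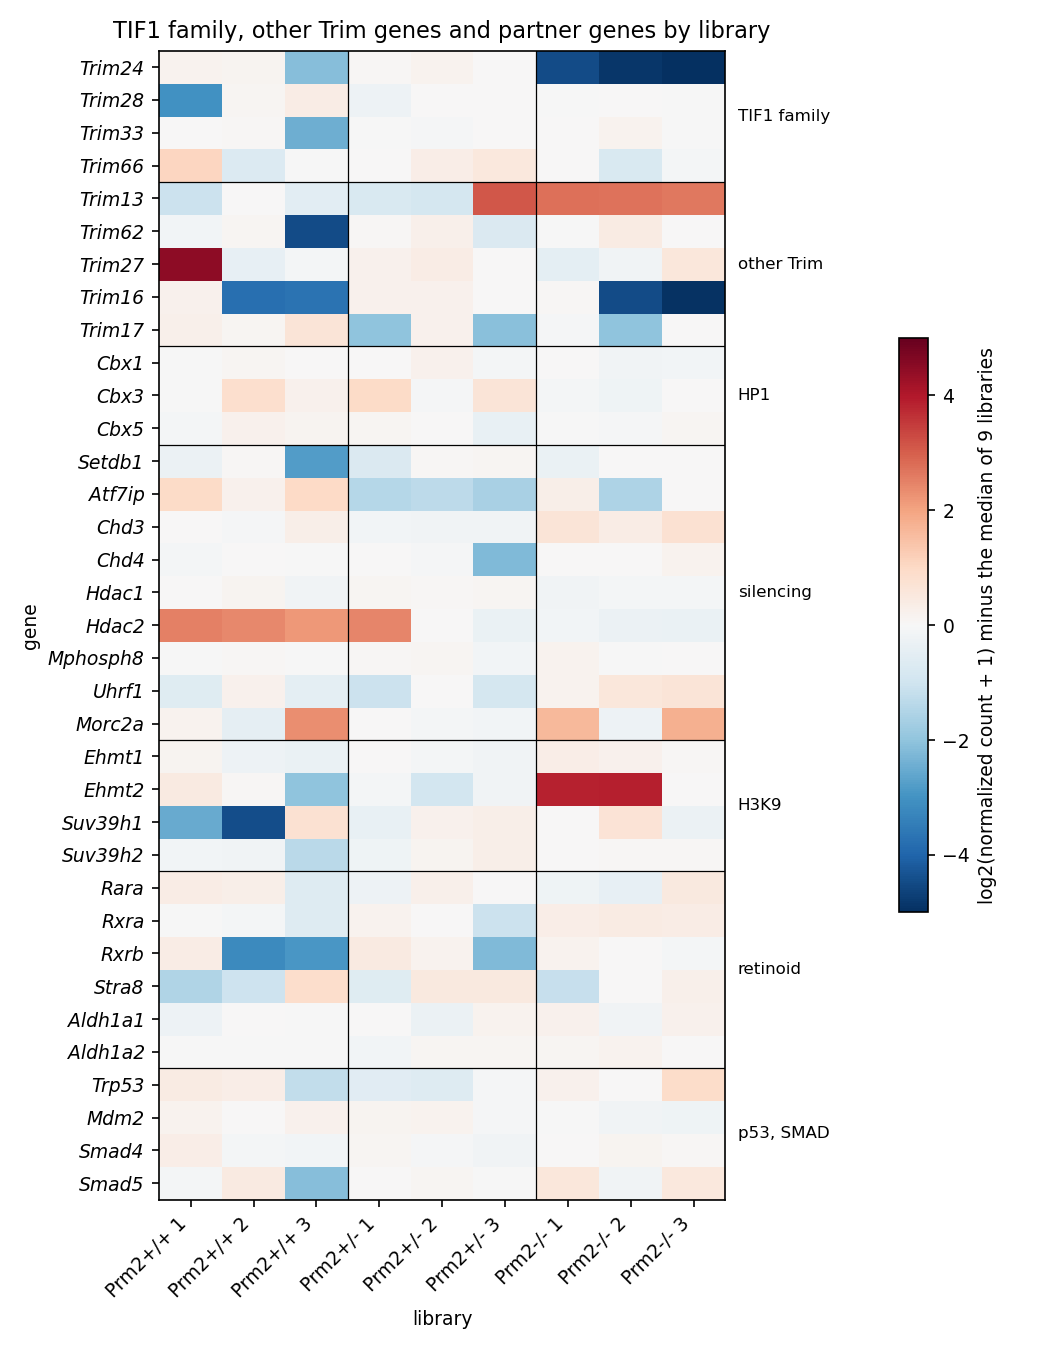
Log2 of the normalized count plus 1 minus the gene's median over the 9 libraries (colour) for the TIF1 family, other Trim genes and partner genes (rows) in each library (columns). Genes other than the family were chosen for display with their values known. Trim24 is the one member that follows the Prm2-/- libraries, and Trim13, Trim16, Trim27, Hdac2 and Ehmt2 also take separate levels in whole libraries.

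The genes that the TIF1 proteins act with were followed in 8 lists of together 90 genes, of which 88 were in the table and 73 were tested. None (0) was called between Prm2-/- and Prm2+/+ in limma or edgeR, where 0.181% of all tested genes were called in limma. An unadjusted p under 0.05 in limma was found for 7 of the 73, against 1091 of all 14893 tested genes (7.33%). DESeq2, given all 38685 entries of the table, called 138 of them. Among the 88 partner genes in the table it called 2, Hdac2 and Ehmt2. The median LFC of the 73 genes was 0.06, with 43 above 0, beside 0.02 over all tested genes. Libraries of the 2 genotypes did not overlap for 11 of the 73, against 14% of all tested genes. Adding an LFC beyond 1 left 1 of 73, Hdac2, against 2.99% of all tested genes.

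The HP1 genes, whose products bind methylated histones and TIF1 proteins, overlapped between Prm2-/- and Prm2+/+ for all 3 members of the list. Cbx1 had 567 to 613 normalized counts in Prm2+/+ and 505 to 579 in Prm2-/- (LFC -0.14, limma adjusted p = 0.754). Cbx5 had 304 to 376 and 308 to 341 (LFC -0.09). Cbx3 varied more within genotypes, with 174 to 315 in Prm2+/+, 171 to 342 in Prm2+/- and 154 to 177 in Prm2-/- (LFC -0.43, limma adjusted p = 0.751). None (0) of the 3 was called.

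Among the 17 tested genes of the KRAB zinc finger silencing machinery, 12 had an LFC above 0 and 5 below, with a median of 0.10 and none (0) called. The best expressed were Mphosph8, a subunit of the HUSH silencing complex, and Chd4, a nucleosome remodeller. Mphosph8 had 1785 to 1903 normalized counts in Prm2+/+ and 1788 to 2068 in Prm2-/-. Chd4 had 854 to 1021 in 8 libraries and 194 in replicate 3 of Prm2+/-. Setdb1, the histone methyltransferase that TRIM28 recruits, had 49.4 to 89.2 normalized counts in 8 libraries and 11.0 in replicate 3 of Prm2+/+. It was the 1 of 73 tested partner genes at least 4-fold below all other 8 libraries there, against 512 of all tested genes (3.44%). Hdac2, a histone deacetylase, had 93.9 to 119 in Prm2+/+ and 15.8 to 18.1 in Prm2-/-, with 114, 20.1 and 15.9 in Prm2+/- (LFC -2.62 between Prm2-/- and Prm2+/+, limma adjusted p = 0.392).

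Of the other methyltransferases of histone 3 lysine 9, Ehmt2 had 5.52 to 35.2 normalized counts in Prm2+/+ and 12.8 to 23.7 in Prm2+/-. In Prm2-/- it had 378 and 387 in replicates 1 and 2 and 25.3 in replicate 3. Its LFC between Prm2-/- and Prm2+/+ was 3.07 (SE 1.09, adjusted p = 0.604 by limma and 0.0215 by DESeq2). Suv39h2 had 25.4 to 60.8 in Prm2+/+ and 66.1 to 68.6 in Prm2-/- (LFC 0.57, limma adjusted p = 0.725). The median LFC of 1.38 for these 4 tested genes rests on Ehmt2 and on Suv39h1, which had 2.85, 0 and 36.5 normalized counts in Prm2+/+ and 16.9 to 34.5 in Prm2-/-.

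**Figure D5:**
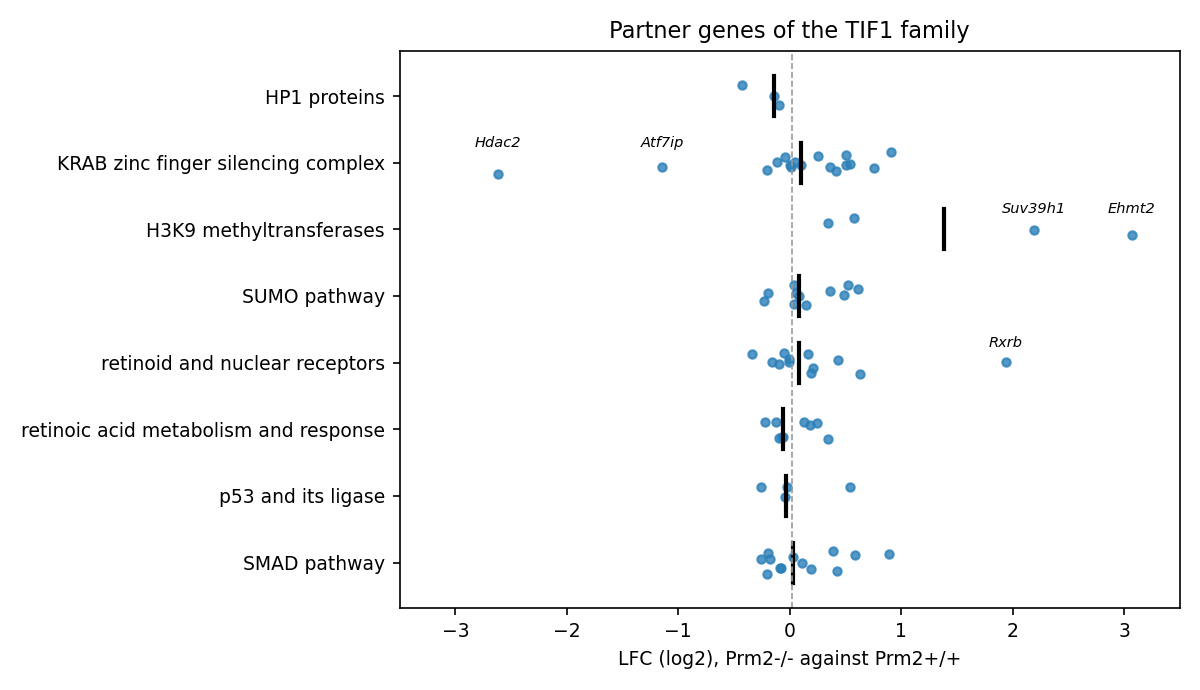
LFC between Prm2-/- and Prm2+/+ (log2, x axis) of each tested partner gene (points) in the 8 lists (rows), with the median of each list as a black bar and that of all tested genes as a dashed line. Genes with an LFC beyond 1 are named. Medians lie between -0.14 and 0.10 in 7 lists and at 1.38 for the 4 tested histone methyltransferases.

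In the SUMO pathway, whose conjugation TRIM28 both undergoes and promotes, 9 of 11 tested genes had an LFC above 0 and none (0) was called. The best expressed were Pias2, with 1314 to 2115 normalized counts in Prm2+/+ and 1751 to 1964 in Prm2-/-, and Sae1, with 682 to 945 and 597 to 705.

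The nuclear receptors with which TRIM24 works were not called either (0 of 12 tested). Nr2c2, an orphan receptor, had 117 to 154 normalized counts in Prm2+/+ and 118 to 156 in Prm2-/- (LFC -0.01). Rxra, the retinoid X receptor alpha, had 56.4 to 86.5 in Prm2+/+ and 113 to 118 in Prm2-/- (LFC 0.63, SE 0.32, limma adjusted p = 0.719). Of the genes of retinoic acid metabolism and response, 9 were tested, 4 had an LFC above 0 and none (0) was called. Aldh1a1 and Aldh1a2, which encode enzymes that make retinoic acid, had LFCs of 0.18 and 0.12. Stra8, a gene induced by retinoic acid at the entry into meiosis, had 25.7 to 138 normalized counts for Prm2+/+, 48.4 to 104 for Prm2+/- and 32.6 to 88.7 for Prm2-/-, so that the genotypes overlapped.

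The p53 group showed no call (0 of 4 tested). Mdm2, the main ubiquitin ligase of p53, had 631 to 733 normalized counts in Prm2+/+ and 544 to 629 in Prm2-/- (LFC -0.25, limma adjusted p = 0.656), and Mdm4 had an LFC of -0.02. Of the SMAD pathway, on which TRIM33 acts, 13 genes were tested, 7 had an LFC above 0 and none (0) was called. Smad5 had 25.4 normalized counts in replicate 3 of Prm2+/+ and 102 to 168 in the other 8 (LFC 0.89, limma adjusted p = 0.75), and Tgfbr1 had an LFC of 0.19. Smad4, the shared partner of the SMAD proteins, had 61.0 to 86.5 normalized counts over all libraries (LFC 0.03). Cbx3, Setdb1, Suv39h1, Stra8, Smad4, Atf7ip, Thrb, Uhrf1, Chd3 and, among the other Trim genes, Trim68 were named after their values were seen.

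Between Prm2+/- and Prm2+/+, none (0) of the 73 partner genes was called in limma or edgeR. DESeq2 called 1 of 88, Atf7ip, against 66 of all 38685 entries. Of the 73, 4 had an unadjusted p under 0.05 in limma, against 632 of all 14893 tested genes (4.24%). Libraries did not overlap for 6 of the 73, against 9.44% of all tested genes, and with an LFC beyond 1 for 2 (Atf7ip and Thrb), against 1.91%. Atf7ip, which encodes a partner of SETDB1, had 143 to 249 normalized counts for Prm2+/+, 38.9 to 49.3 for Prm2+/- and 150, 41.6 and 122 for Prm2-/- (LFC -2.19 between Prm2+/- and Prm2+/+, adjusted p = 0.599 by limma and 0.00201 by DESeq2). Between Prm2-/- and Prm2+/-, none (0) of the 73 was called in limma or edgeR. DESeq2 called 2 of 88, Ehmt2 and Chd3, against 113 of all 38685 entries. Of the 73, 5 had an unadjusted p under 0.05 in limma, against 810 of all 14893 tested genes (5.44%). Libraries did not overlap for 15 of the 73, against 14.7%, and with an LFC beyond 1 for 2 (Ehmt2 and Uhrf1), against 2.39%. Chd3, a remodeller of the same family as Chd4, had 263 to 339 normalized counts in Prm2-/- and 175 to 184 in Prm2+/- (LFC 0.76, adjusted p = 0.219 by limma and 0.0013 by DESeq2).

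The summed germ cell markers were read beside replicates 1 and 3 of Prm2+/+, in which Trim28 and Trim33 were low. The summed normalized counts of 6 spermatocyte markers were 5586 in replicate 1 and 5054 in replicate 3 of Prm2+/+, against 5477 to 6269 in the other 7 libraries. Those of 6 round spermatid markers were 4317 and 4383, against 4247 to 5779. Those of 6 spermatogonial markers were 201 and 328, against 202 to 300. For 6 elongating spermatid markers the sums were 228956 and 217907, against 204504 to 221107. Replicate 3 thus had the lowest spermatocyte sum and the highest spermatogonial sum, and replicate 1 the highest elongating spermatid sum. The spermatogonial sum of replicate 1 was nearly equal to that of the lowest other library. Single spermatogonial markers went different ways in replicate 3. Stra8 had its highest value of all libraries there (138 normalized counts) and Kit its lowest (15.5). Both were picked after their values were seen. Of 7 Sertoli cell markers, 6 were detected and Amh had 0 counts in all libraries, and their sum was highest in replicate 3 of Prm2+/+ (3220, against 2406 to 3008). The summed counts of 4 peritubular markers were 226 to 271 in Prm2-/-, 254 to 277 in Prm2+/- and 293 to 325 in Prm2+/+. They were thus lower in every Prm2-/- and every Prm2+/- library than in any Prm2+/+ library. Of all single tested genes, 14% had libraries that did not overlap between Prm2-/- and Prm2+/+. Between Prm2+/- and Prm2+/+ this share was 9.44%. The 3 tested peritubular genes had a median LFC of -0.28 between Prm2-/- and Prm2+/+, with 0 of 3 above 0. The sums of Leydig cell, macrophage and endothelial markers overlapped between Prm2-/- and Prm2+/+. None (0) of the markers in any list was called between Prm2-/- and Prm2+/+ in limma. The part of cell composition in the levels of the family was not tested.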

How the data were processed

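Total RNA of 9 testes, 3 per genotype, was sequenced as QuantSeq 3′ libraries. The submitters' processing notes name Trim Galore 0.4.5, HISAT2 2.1, StringTie 1.3.3, DESeq2 and GRCm38. The deposited values are a signal that the authors made by dividing the counts of a gene by the DESeq2 size factor of the sample. In each sample the values were whole multiples of a smallest step (tolerance 0.001), which gave back counts, though for Prm2+/- replicate 1 the step is close to 1 and the sign is weaker. Such counts come from coverage and read length and need not be sequenced reads, so intervals cover counting error at most. Whether strand was used is not given in the sources used here.

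Genes passing filterByExpr of edgeR 4.0.16 (14893) were fitted with limma 3.58.1 (R 4.3.3) on log2(normalized count + 1), all 9 samples, genotype as the term and trended variance. LFCs are on that scale, which understates changes of low genes. A call required an LFC beyond 0.5 together with an adjusted p (Benjamini-Hochberg) under 0.05. The fit was tested on simulated data. Alternatives were edgeR, DESeq2 1.42.0, other filters, pseudocounts, scaling and samples. Positions are from GENCODE M21 on GRCm38, which matched 38520 entries (99.6%). Replicate numbers did not pair the samples.

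The members, lists and tests were chosen with earlier results of these data known. Named were the members, their neighbours within 100 kb, the 5 highest and 3 lowest correlations with Trim24, the 3 highest for each relative, and the 3 other Trim genes with the largest LFC. Of each partner list, called genes, those with non-overlapping libraries and an LFC beyond 1 between Prm2-/- and Prm2+/+, and the 2 best expressed were named. Genes named outside this rule are marked as chosen after their values were seen.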

Additional observations from a re-analysis of the deposited data

How the results depend on the processing

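Over 18 alternatives per comparison, Trim24 kept the sign of its LFC between Prm2-/- and either other genotype. Trim24 was chosen for its level in Prm2-/-, so the constant sign only describes it and is no support. Leaving out 1 library gave LFCs of Trim24 of -4.97 to -3.805 against Prm2+/+ and -5.06 to -4.73 against Prm2+/-. Between Prm2+/- and Prm2+/+ they were -0.08 to 1.08. No alternative called Trim28, Trim33 or Trim66. Without 1 library, the LFC of Trim28 spanned -0.23 to 1.46 (Prm2-/- against Prm2+/+), -0.29 to 1.40 (Prm2+/- against Prm2+/+) and -0.02 to 0.11 (Prm2-/- against Prm2+/-). In the same order Trim33 spanned 0.02 to 1.28, -0.06 to 1.20 and 0.02 to 0.11, and Trim66 -0.81 to 0.07, -0.24 to 0.645 and -0.71 to -0.33. The sign turned without replicate 1 of Prm2+/+ (Trim28 to -0.23 and -0.29, Trim66 to 0.074), replicate 3 of Prm2+/+ (Trim33 to -0.059), replicate 2 of Prm2+/+ (Trim66 to -0.24) and replicate 1 of Prm2+/- (Trim28 to -0.022). The Trim66 LFC between Prm2+/- and Prm2+/+ was also -0.014 in edgeR and -0.015 in DESeq2.

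Genes called numbered 27 (Prm2-/- against Prm2+/+), 12 (Prm2+/- against Prm2+/+) and 26 (Prm2-/- against Prm2+/-). Requiring 10 or more counts per sample left 9, 1 and 11, and DESeq2 gave 138, 66 and 113. With only the 6 samples compared they were 50 in the first and 52 in the last, and with any count above 0 they were 21 in the second. Leaving out 1 library gave 28 to 64, 9 to 44 and 23 to 50. The highest counts came without replicate 2 of Prm2+/+ in the first 2 and without replicate 1 of Prm2+/- in the last. Partner genes called were 0 in each. DESeq2 called 2, 1 and 2, the 6 samples alone gave 1 in the first comparison (Hdac2), and leaving out 1 library gave 0 to 1 in the first 2 and 0 in the last, the 1 being Hdac2 without replicate 1 of Prm2+/-. The cause was not tested.

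Same-numbered libraries did not deviate together, with correlations of -0.0365 to 0.0423 over 9 pairs against -0.0376 to 0.0456 over 18 others, so the numbers give no pairing. With the replicate block 15, 6 and 14 genes were called.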
